A study of Brassica rapa subsp. rapa with 9 samples.

Results

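AT2G01520 is the Arabidopsis gene that the deposited annotation gives as the best match of 9 cDNA probes on a spotted array hybridised with turnip RNA. The members were all probes of weight 1 whose annotation ends in this identifier, 9 of the 2507 such probes on the array, each printed as 2 spots. The gene was chosen by its log2 ratios of UV-B to darkness on these same arrays, so every value of UV-B against darkness, or against another light, is given here as a description without a test. Blue light and UV-A took no part in that choice and were tested. The probes are numbered 1 to 9 from the highest to the lowest mean signal, and their deposited numbers in that order are 447, 412, 475, 1095, 1589, 569, 2780, 1310 and 1474.

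The annotation calls AT2G01520 an unknown protein. In Arabidopsis it is known as a major latex protein-like gene, MLP328, also named ZCE1 for the rise of its RNA after treatment with cis-cinnamic acid. Major latex proteins were first described in the latex of opium poppy and belong to the Bet v 1 superfamily, small soluble proteins folded around a hydrophobic cavity that can hold a ligand. The same superfamily includes the pathogenesis-related proteins PR-10 and the abscisic acid receptors of the PYR/PYL family. No turnip gene, position or sequence is given, because clone names had no counterpart in the reference table at hand.

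The study measured the swollen hypocotyl, the storage organ, of the red turnip cultivar Tsuda (Brassica rapa subsp. rapa) after 24 hours under blue light, UV-A or UV-B, or in the dark. A peeled outer layer gave the RNA, and several plants were pooled for each biological replicate, per the labels and the design text. Each of the 9 arrays, 3 per light, held 1 exposed sample labelled with Cy3 and 1 sample kept in darkness labelled with Cy5, with no dye swap. Groups follow the sample titles, as the description field gives blue light for every sample.

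The arrays differed in signal. In the light channel the median foreground over background lay between 3.57 and 4.35 on UV-B replicates 1 and 2, and between 8.82 and 65.8 on the other 7 arrays. In the dark channel it lay between 9.17 and 36.9. Of the 135 empty positions, 3.7% to 8.15% were above background (foreground at least 1.5 times background) on replicates 1 and 2 of each light, but 99.3% to 100% on each replicate 3. Spots of PIP1B and PIP3, which encode aquaporins, and of the peroxidase gene PRXR1 were at 40.5 to 433 times background in every dark sample. These 3 genes were listed for storage organ and root, and whether they are particular to that tissue was not tested. The chlorophyll-binding antenna gene LHCB2.1 was at 5.92 to 20.0 times background in darkness. CER3, which was not on the marker list and is not used as a marker here, was at 1.29 to 3.47 times. The listed epidermal names ATML1, PDF1, PDF2, LTP1, CER1 and CER6 were not among those measured. No values are given here for the listed KCS, LHCB1, RBCS and CAB1. In such bulk samples, fewer cells of a type and less RNA per cell cannot be told apart.

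The 9 probes fell apart by their own signal. Probes 1 to 5 gave light foreground intensities from 15918 (blue) and from 26124 (UV-A) up to the scanner maximum, at which a spot is saturated. Probes 6 to 9 never went above 5696 in any channel on any array. Among the 30 light readings of probes 1 to 5, 16 were saturated in blue light and 11 in UV-A, and no dark reading of those arrays was. On the UV-B arrays their light readings ran from 668 to 11340 with none saturated, while 10 of 30 dark readings were. Signals of different probes do not measure relative amounts of RNA, because clones differ in length and in the amount spotted.

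Probe 1, which represents the gene, shows the raw data most directly. Its light foreground was at the scanner maximum in both spots of all 3 blue arrays, against dark readings of 35353 and 27442, 52322 and 36535, and 35860 and 31824 on replicates 1, 2 and 3. In UV-A the light readings were 61031 and saturated on replicate 1, 63247 and 35850 on replicate 2, and saturated in both spots of replicate 3, against dark readings between 26037 and 53303. In UV-B the light readings were 1782 and 2773, 3234 and 3802, and 1182 and 1462, against dark readings of 30968 and 37649 on replicate 1, saturated and 16528 on replicate 2, and saturated in both spots of replicate 3. All 6 UV-B light readings lay below every other light reading of the probe and were 5.5 to 12 times the local background. Of the 6 dark readings on the UV-B arrays, 3 were saturated and 1, at 16528, was the lowest dark reading of the probe.

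**Figure D1:**
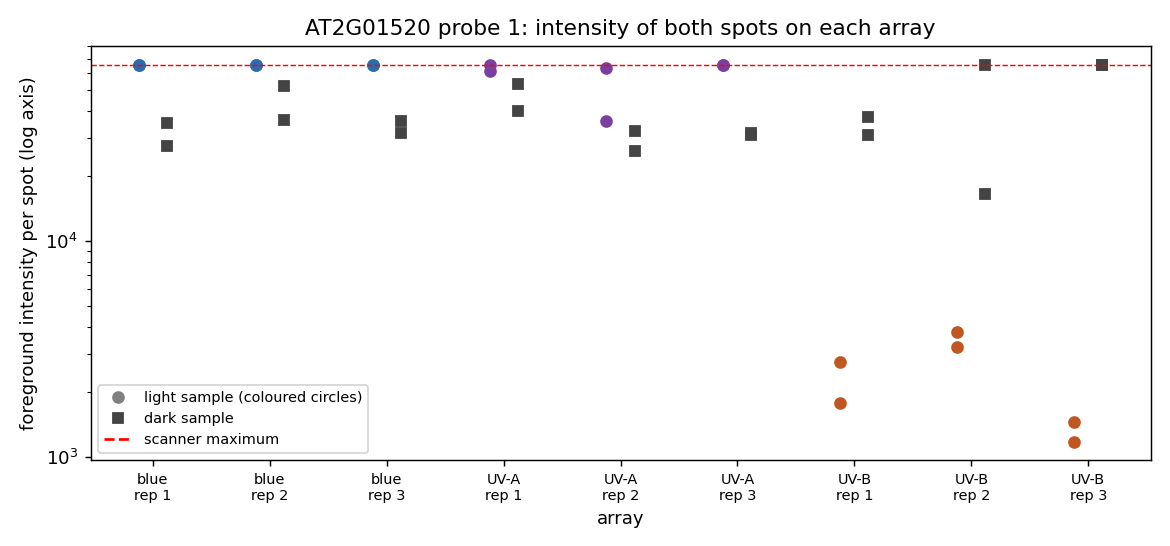
Foreground intensity of AT2G01520 probe 1 on a log axis for both spots of each of the 9 arrays, with the light sample as circles, the dark sample as squares and the scanner maximum as a dashed line. The 6 UV-B light readings lie between 1182 and 3802, while all 6 blue light readings sit at the maximum.

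Log ratios below are log2(light/dark) after background correction and loess normalization, with positive values for more signal in light. The authors' deposited table of processed values runs the other way, as dark over light. A saturated light spot makes a ratio a lower limit and a saturated dark spot makes it an upper limit, leaving aside the loess step. All values against darkness include any dye bias of the probe, since dyes were not swapped and the split-control arrays named in the design text are not analysed here.

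In UV-B the log2 ratio of probe 1 was -4.55 on replicate 1, at most -3.42 on replicate 2 and at most -5.54 on replicate 3, with a mean of -4.51 ± 1.06 (SD, n = 3), which is at least 22.7-fold lower than darkness. Probe 2 had -4.85, at most -2.49 and at most -5.20 on the same arrays. Both were measured without saturation on replicate 1 alone. Probe 3 had -3.42, at most -2.19 and at most -4.63, with a mean of -3.41 ± 1.22 (SD, n = 3). Probe 4 had -3.18, at most -3.03 and at most -6.14. For these 4 probes the upper limit on replicate 3 lay below the measured value on replicate 1. The place of replicate 2, an upper limit above both, cannot be read. On that array 1 dark spot of each was saturated, and the other read 16528, 10565, 5524 and 3673 for probes 1 to 4. Probe 5 had -5.31, -3.76 and at most -5.69, with a mean of -4.92 ± 1.02 (SD, n = 3), or at least 30.2-fold lower than darkness, and no saturated spot on replicates 1 and 2. On UV-B replicate 1 none of the 10 spots of these 5 probes was saturated in either channel, and there the log2 ratios ran from -5.31 to -3.18.

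Among all 2507 probes ordered by their mean log2 ratio in UV-B, with saturated spots taken at the scanner maximum, probe 5 had rank 1, probe 1 rank 2, probe 2 rank 4, probe 4 rank 5 and probe 3 rank 27, counted from the lowest. These are the values by which the gene was chosen, and nothing is read from the counts that follow. All 3 UV-B arrays lay below 0 for 5 of the 9 probes, against 27.3% of all probes, and above 0 for none, against 28.2%. The 3 UV-B arrays lay below all 6 blue and UV-A arrays in 5 of the 9 probes, against 11.4% of all probes. The median over the 9 probes was -3.41 in UV-B, and over all probes 0.011. The 3 genes listed above for storage organ and root, a list chosen with earlier results of these data known, were also lower in UV-B. PIP1B changed by a log2 of -1.75 (adjusted p = 0.000587 in limma), PIP3 by -2.09 (0.00111) and PRXR1 by -3.04 (0.000189). LHCB2.1 had 0.62 (0.168) and CER3 -0.19 (0.733). Each of these genes is given by 1 probe, and PIP1B had 1 other probe whose value is not given. Because of how the list was chosen, these p-values are no independent evidence. The part of the tissue's makeup in the AT2G01520 values was not tested.

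Probes 6 to 9 did not share these values. Their mean log2 ratios in UV-B were -0.67 ± 0.845, 0.15 ± 0.364, -0.30 ± 0.838 and -0.56 ± 1.26 (SD, n = 3 each), and each had arrays on both sides of 0. Their light channel was above background on 2 of the 3 UV-B arrays for probe 6 and on 1 of 3 for each of probes 7, 8 and 9, that is, under 1.5 times background in 7 of 12 readings. For probes 7, 8 and 9 that 1 array was replicate 3, where 99.3% of empty positions were above background too. The dark channel was under 1.5 times background as well in 4 of the 12 readings. The 2 spots of a probe on an array differed by a median of 0.321 (log2) for probes 1 to 5 and 0.453 for probes 6 to 9. The widest gaps, 2.15 for probe 1 and 3.00 for probe 6, were both on UV-B replicate 2. For probe 1 on that array 1 of the 2 dark spots was saturated, so its gap is a lower limit, leaving aside the loess step. Dark spots of other probes also differed there, with 5696 and 226 for probe 6 and 1334 and 152 for probe 8. For probes 2, 3 and 4, 1 dark spot was saturated and the other read 10565, 5524 and 3673. Those of probes 5, 7 and 9 were closer, with 7871 and 5827, 269 and 204, and 137 and 134.

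**Figure D2:**
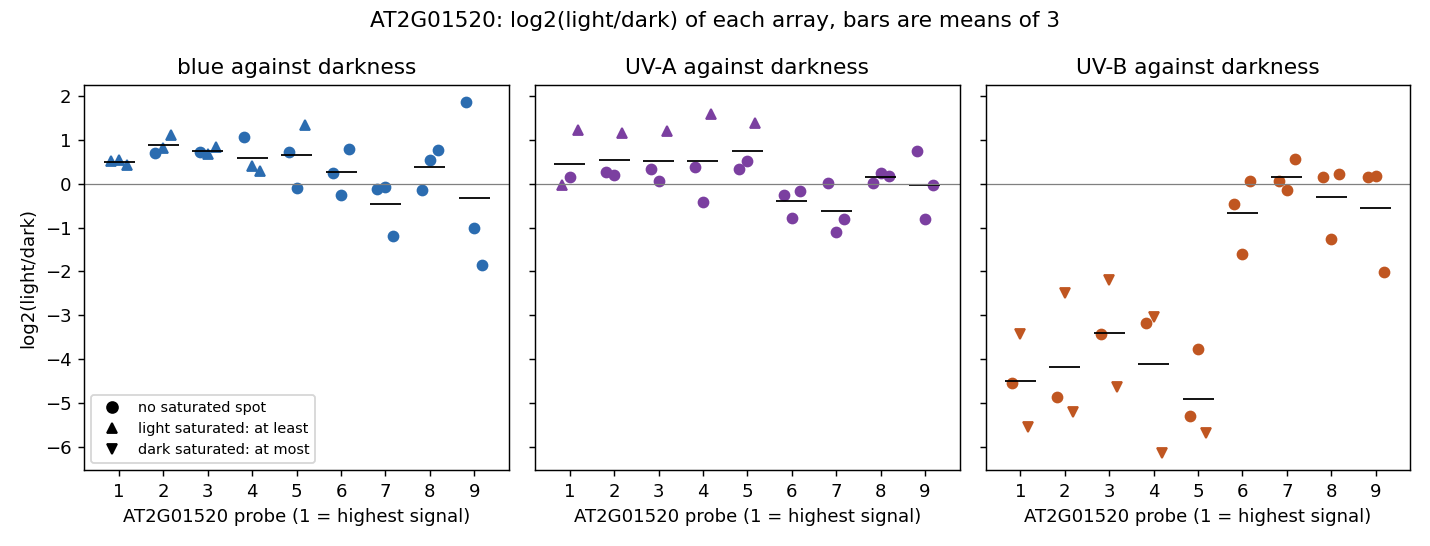
Log2(light/dark) of the 9 AT2G01520 probes on each array, in 1 panel per light, with a bar at the mean of 3 arrays. Triangles mark values limited by a saturated spot, pointing up for a lower limit and down for an upper limit. Probes 1 to 5 lie between -6.14 and -2.19 in UV-B and mostly above 0 in the other lights, while probes 6 to 9 scatter around 0.

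Levels of each channel, set on a common scale across arrays by quantile normalization of the average intensity, place the conditions in order for each probe. For probe 1 the log2 level was 11.3 ± 1.13 (SD, n = 3) in UV-B, 15.3 ± 0.645 (SD, n = 9) in darkness, 15.3 ± 0.354 (SD, n = 3) in UV-A and 15.7 ± 0.234 (SD, n = 3) in blue light. The 9 dark levels ran from 13.96 through a median of 15.46 to 16.27, and the UV-B levels from 9.96 to 12.06, with no overlap. The UV-A and blue levels lay within the range of the dark ones, so these conditions overlapped. That range pools dark samples of all arrays and leaves aside which dark sample shared an array with which light sample. The mean dark level of probe 1 was 15.25 on the blue, 14.85 on the UV-A and 15.75 on the UV-B arrays. For probe 5 the level was 10.2 ± 0.649 in UV-B against 14.6 ± 0.808 in darkness, 15.1 ± 1.29 in blue light and 15.1 ± 0.433 in UV-A (SD, same n). In 5 of the 9 probes every UV-B level lay below all 9 dark levels, as it did for 6.3% of all probes, and these were probes 1 to 5. Saturation at the scanner maximum compresses the upper levels, so their order is not exact. All blue light spots of probe 1 were saturated, so its blue SD of 0.234 does not measure spread between replicates. Levels also depend on the normalization of each array. The dark readings of probe 1 were 31753 and 31074 on UV-A replicate 3, with a level of 13.96. On UV-B replicate 1 they were 30968 and 37649, with a level of 16.27.

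**Figure D3:**
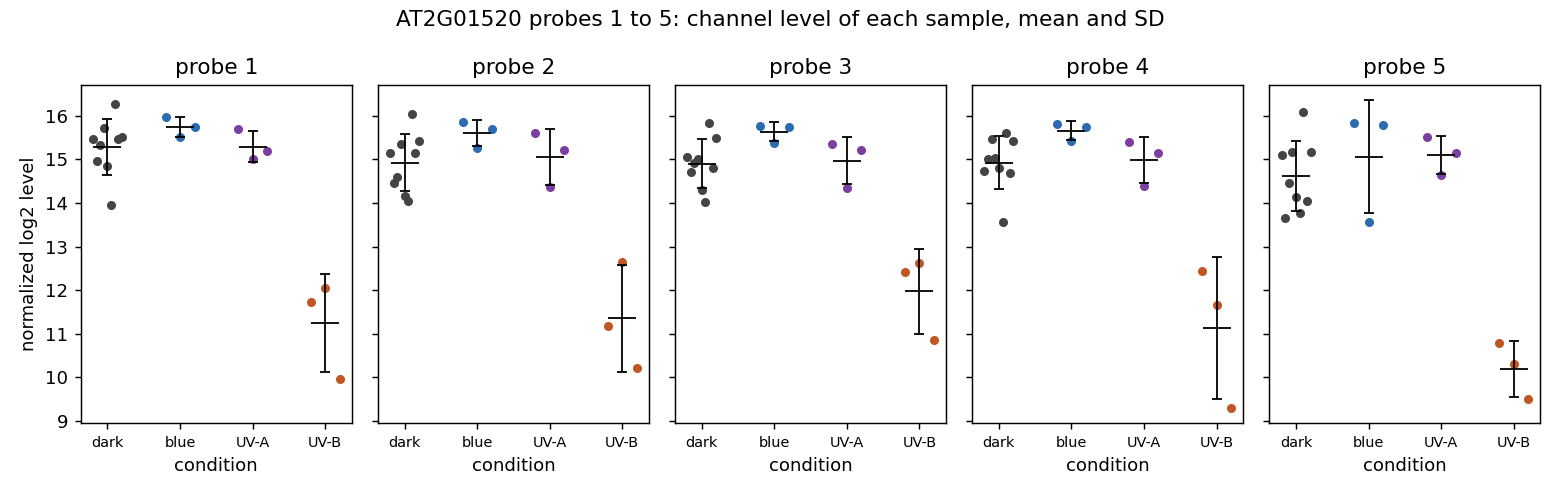
Normalized log2 channel level of AT2G01520 probes 1 to 5 in 9 dark, 3 blue, 3 UV-A and 3 UV-B samples, with the mean and SD as bars. In each panel the 3 UV-B points lie under all others, and the blue and UV-A points each overlap the dark ones.

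Blue light was tested against darkness with limma over all 2507 probes. The ratios of probe 1 were at least 0.51, 0.55 and 0.42 on replicates 1, 2 and 3, where its light channel was saturated in every spot, and its mean of 0.49 ± 0.377 (SE, n = 3, adjusted p = 0.433) did not pass the test, with a 95% interval of -0.33 to 1.32. Like every SE of this fit, that SE pools the spread within each light over all 9 arrays. The SD of probe 1 was 0.067 over the blue arrays, 0.68 over the UV-A arrays and 1.06 over the UV-B arrays. With every blue light spot at the scanner maximum, the SD of 0.067 does not measure the spread of the light signal between replicates. Since all 3 blue ratios were lower limits, the upper end of the interval does not bound the true ratio. Probe 2 had 0.71, at least 0.81 and at least 1.10, with a mean of 0.87 ± 0.44 (SE, adjusted p = 0.235). Probe 3 had 0.71, at least 0.67 and at least 0.84, with a mean of 0.74 ± 0.395 (SE, adjusted p = 0.257). These 3 probes and probe 4 were above 0 on all 3 blue arrays, while probe 5 had -0.09 on replicate 2 and 0.73 and at least 1.33 on the other two. None of the 9 probes passed an adjusted p of 0.05 in limma, and none had an unadjusted p under 0.05 (the lowest was 0.0711). With the pooled spread and the saturated spots, this does not show that blue light left the gene unchanged. Over all probes 1.12% passed as higher and 2.35% as lower, and 25.2% had an unadjusted p under 0.05. All 3 blue arrays were above 0 in 4 of the 9 probes and below 0 in 1, against 19.7% and 21.1% of all probes. The median over the 9 probes was 0.49, and over all probes 0.017.

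UV-A replicate 3 had higher ratios than replicates 1 and 2 in probes 2 to 5, and for probe 1 replicate 1 gave only a lower limit. Probe 1 had at least -0.03, 0.15 and at least 1.23 on replicates 1, 2 and 3, with a mean of 0.45 ± 0.377 (SE, n = 3, adjusted p = 0.557). Probe 5 had 0.34, 0.52 and at least 1.38, with a mean of 0.75 ± 0.396 (SE, adjusted p = 0.314). On replicate 3 every light spot of probes 1 to 5 was saturated, and their ratios there were at least 1.17 to 1.58. On replicates 1 and 2 the same probes ran from -0.42 to 0.52. Probe 7, of low signal, had the lowest mean, -0.63 ± 0.316 (SE, adjusted p = 0.287). None of the 9 probes passed in limma and none had an unadjusted p under 0.05, while 1.12% of all probes passed as higher, 2.07% as lower, and 20.4% had an unadjusted p under 0.05. All 3 UV-A arrays were above 0 in 4 of the 9 probes and below 0 in 1, against 24.1% and 26% of all probes. The median over the 9 probes was 0.45.

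UV-A and blue light were compared as a difference of log ratios, in which a dye bias of the probe cancels. Both lights had saturated light spots in each of probes 1 to 5, so their differences are between 2 lower limits and bound the true difference in neither direction. Probes 6 to 9 had no saturated spot, and their mean differences of UV-A minus blue ran from -0.67 (probe 6, 95% interval -1.71 to 0.37) to 0.30 (probe 9, interval -1.62 to 2.23). None of the 9 passed in limma (adjusted p of 0.952 to 0.989) or had an unadjusted p under 0.05, and 0% of all probes passed in either direction, with 3.19% at an unadjusted p under 0.05. The test does not show that both lights act alike.

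The probes also shared their course over the arrays unequally. Across the 9 arrays the log ratios of probes 1 to 5 correlated with each other at 0.945 to 0.994 (Pearson r), those of probes 6 to 9 with each other at -0.506 to 0.772, and those of both sets with one another at -0.701 to 0.401. These values describe 9 arrays of 3 lights, in which the gap between UV-B and the other lights carries most of the variation, and all probes share array, dye and normalization. Several clones under 1 name may come from the same transcript or from related turnip genes, and the annotation does not tell these apart.

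Other genes of the superfamily came from a list of 42 Arabidopsis identifiers, and 2 of them were on the array: AT1G70830, known in Arabidopsis as MLP28, with 1 probe, and AT1G70850, known as MLP34, with 5 probes. Both belong to the major latex protein branch, and no abscisic acid receptor of the list was measured. The list was drawn up with earlier results of these data known and follows from a gene chosen by its UV-B values. In UV-B 2 of the 6 probes fell and none rose, against 13.9% and 10.8% of all probes, and their median was 0.048 where that of all probes was 0.011. Both that fell were AT1G70850 probes.

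AT1G70850 probe 2175 had -3.08, -2.75 and -2.78 on UV-B replicates 1, 2 and 3, and fell by 2.87 ± 0.264 (log2, SE, n = 3, adjusted p = 2.79e-05 in limma), or 7.29-fold. No spot was saturated, and its light signal on the UV-B arrays was 1.91, 1.51 and 8.99 times background, near background on replicates 1 and 2. Probe 1924 of the same gene had -0.77, -1.05 and -1.32 and fell by 1.05 ± 0.328 (log2, SE, adjusted p = 0.036), with a light channel above background on replicate 3 alone. On that array 99.3% of empty positions were above background too. That second call was lost with the authors' values (log2 -0.31, adjusted p = 0.384), with median centring (0.0715), without the 3 arrays numbered 3 (0.0945), without UV-A replicate 1 or 3 (0.0572 and 0.0503) and without UV-B replicate 1, 2 or 3 (0.0897, 0.103 and 0.184), and plain background subtraction gave a log2 of -2.95. The 3 other AT1G70850 probes had means of -0.0082, 0.10 and 0.13 in UV-B and did not pass, and AT1G70830 had 0.13 ± 0.287 (SE, adjusted p = 0.788), with a light signal under 1.5 times background on UV-B replicates 1 and 2.

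In blue light and UV-A none of the 6 family probes passed in limma, with adjusted p-values of 0.0931 to 0.73 and 0.145 to 0.869, and 4 and 3 of them had an unadjusted p under 0.05. AT1G70830 had 1.33, 1.02 and 0.27 on the blue arrays, with a mean of 0.87 ± 0.287 (SE, adjusted p = 0.103). With the replicate number as a block 4 of the 6 passed as higher in blue light, where 6.7% of all probes did, AT1G70830 (adjusted p = 0.0475) and AT1G70850 probes 2131 (0.0483), 2175 (0.0364) and 2756 (0.0235), and 1 of the 6, probe 2131, passed as higher in UV-A (log2 1.00, adjusted p = 0.0344), where 4.59% of all probes did. The median over the 6 probes was 0.84 in blue light and 0.71 in UV-A.

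**Figure D4:**
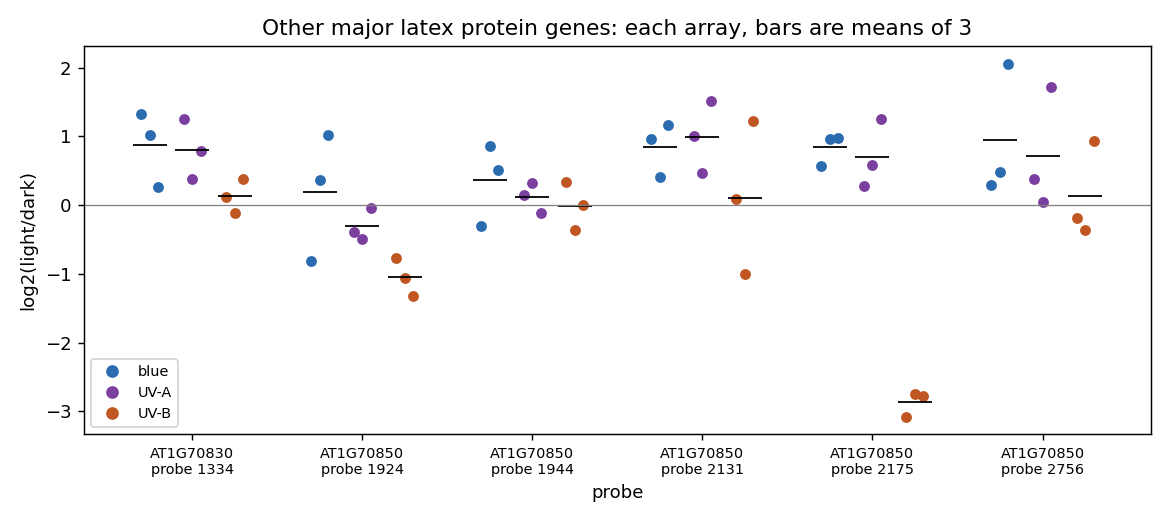
Log2(light/dark) of the 6 probes of the 2 other major latex protein genes on each array, with a bar at the mean of 3 arrays per light. AT1G70850 probe 2175 lies between -3.08 and -2.75 in UV-B, while 4 of the other 5 probes have UV-B arrays on both sides of 0.

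The genes most like AT2G01520 were found by the Pearson correlation of log ratios with probe 1 over the 9 arrays, taking the brightest probe of each of 1022 other names. The 5 highest were SAR1, a synaptobrevin-related protein of membrane fusion (r = 0.992), AT5G59910, a DNA-binding protein in the annotation and a histone H2B gene in Arabidopsis (0.989), the subtilase-type peptidase gene AT4G20430 (0.98), AT1G15400, of unknown function in the annotation (0.979), and ARAC9, annotated as GTP binding (0.977). The median r over all names was -0.0968, and 44 names were over 0.9. These are descriptions without a test, over arrays that share 3 lights and 1 dye orientation.

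The size of the UV-B value differed among these genes. ARAC9 had a mean log2 ratio of -3.74 in UV-B, SAR1 -2.73, AT5G59910 -2.54, AT1G15400 -1.95 and AT4G20430 -1.82, where AT2G01520 probe 1 had -4.51. AT4G20430 had -2.04, -1.09 and -2.32 on UV-B replicates 1, 2 and 3, and AT1G15400 had -2.26, -1.11 and -2.47, both nearest to 0 on replicate 2. Their blue means ran from 0.09 to 0.98 and their UV-A means from 0.35 to 0.77. The likeness differed between probes of 1 gene. The 7 other probes of these 5 genes correlated with AT2G01520 probe 1 at -0.613 to 0.775. Both other SAR1 probes had positive UV-B means, 0.71 and 0.52. Every other probe of the remaining genes had a negative one, from -1.23 (ARAC9 probe 509, r = 0.775) to -0.19 (ARAC9 probe 1131, r = 0.263). Of the 18 readings of the AT5G59910 probe 9 were saturated in a channel, and of the AT4G20430 and AT1G15400 probes none was. For the ARAC9 probe it was 6 of 36 readings, and for the SAR1 probe 1 of 18.

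**Figure D5:**
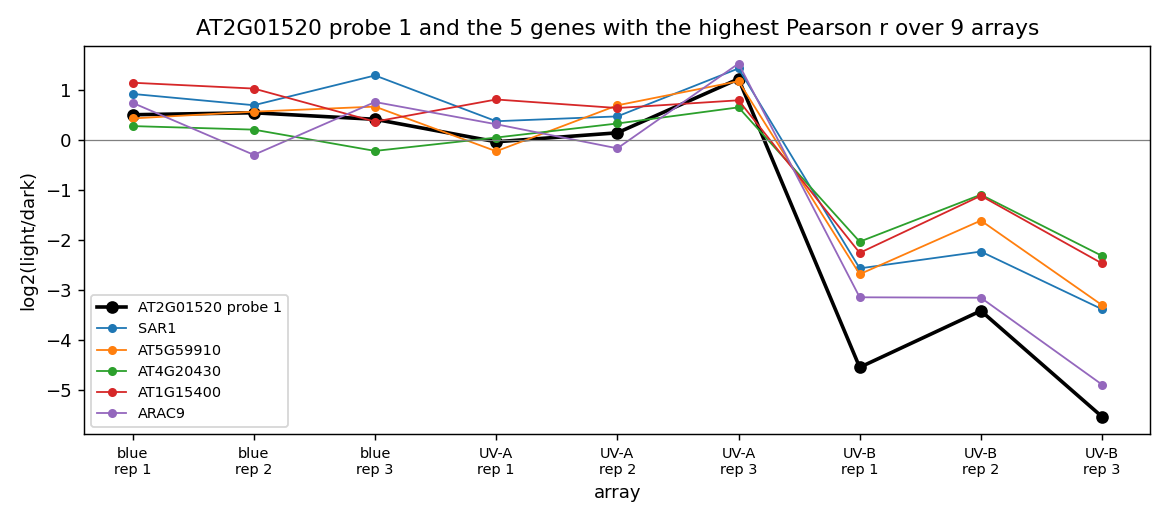
Log2(light/dark) on each of the 9 arrays for AT2G01520 probe 1 and the 5 genes whose brightest probe correlated best with it. All 6 lines lie below -1 on the 3 UV-B arrays and between -0.29 and 1.54 on the others.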

How the data were processed

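The authors deposited, for each of 9 two-colour cDNA arrays, foreground and background intensity values of both channels on a linear scale, per the file headers; scanner and software: not stated. Per the labels, Cy3 held the light-exposed and Cy5 the dark sample, labelled with a dendrimer kit. The deposited files also hold a weight, a score of 0 or 1 without a stated meaning; the analysis kept the 5300 of 6272 spots with weight 1. A further deposited table gives log2 values of the same arrays, normalized by an unstated method, whose columns (medians -0.165 to 0.047) correlated at -0.963 to -0.854 with log2(light/dark) of the same arrays; its sign was turned and it served as an alternative.

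Background was corrected by normexp (offset 50) and ratios were normalized by loess within arrays in R 4.3.3 with limma 3.58.1; spots of a probe were averaged. Probes with a foreground of 1.5 times background in either channel in 3 arrays were kept, which removed 0. On each replicate 3, 99.3% to 100% of empty positions reached that ratio, so this filter could hardly remove a probe. The alternative without a filter therefore used the same probes. Of the 2507 probes, 2145 carried a gene name (1023 names). One limma model with a mean per light over all 9 arrays gave two-sided tests, with a threshold of 0.05 on p-values adjusted by Benjamini-Hochberg over all probes. The fit was tested on simulated data. Channel levels came from the same ratios after Aquantile scaling. The number of arrays limits the precision.

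Groups and replicate numbers came from the titles. Deviations from the group means correlated at 0.105 to 0.622 in all 9 pairs of arrays with the same number and at -0.625 to 0.0591 in the 18 others, so the numbers were taken to pair the arrays, and the fit with the number as a block was an alternative. Other alternatives were plain background subtraction, normexp with offset 10, median centring, print-tip loess, spots of weight 0, leaving out saturated spots, stricter or no filter, leaving out arrays, and only the arrays compared. The named genes were all AT2G01520 probes, the superfamily list and the 5 most correlated names; the gene, lists and rules were chosen with earlier results of these data known. Of the marker list, FDH on this array is annotated as formate dehydrogenase and was not used. CHS, F3H and PAL1, measured for reference and given by 1 probe each, had log2 ratios of 0.49, 0.96 and 1.67 in UV-B (adjusted p = 0.476, 0.0357 and 0.00132) and of 1.84, 1.70 and 0.98 in UV-A (0.0482, 0.0138 and 0.0737). Figures used Python 3.11.15 and matplotlib 3.10.9.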

Additional observations from a re-analysis of the deposited data

Results flagged for a closer look

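Probe 4 of AT2G01520 had a dark level of 13.57 (log2) on the array of UV-A replicate 3, set apart below the 8 other dark levels. Its raw dark readings there, 20852 and 30077, were not the lowest of the probe. On blue replicate 1 they were 19283 and 18905, at a level of 14.745. Probe 8 had a dark level of 9.838 on the array of UV-B replicate 2, set apart above its 8 others. Its 2 dark spots on that array read 1334 and 152, so that level rests on 1 high spot. The gap was judged by Dixon's 95% limit for 9 samples in each of 9 probes, and chance alone marks some groups.

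Every blue array of probes 1, 2, 3 and 4 lay above 0 and every UV-B array below it. The UV-B log2 ratio minus that of blue light was at most -5.001, -5.05, -4.16 and -4.70 for these probes. Likewise every UV-A array of probes 2, 3 and 5 lay above 0, with UV-B minus UV-A differences of at most -4.72, -3.94 and -5.67. They are upper limits, leaving aside the loess step, because dark spots on UV-B arrays and light spots on the others were saturated. These differences were not tested, because the gene was chosen for its UV-B values.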

How the results depend on the processing

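No AT2G01520 probe passed in blue light, in UV-A or between these lights under any of 22 alternatives each. Adjusted p-values of single probes under them were at least 0.0979 in blue light, 0.0546 in UV-A (probe 7, authors' values with the replicate block) and 0.675 between the lights. In particular, the count of probes that passed was 0 with the replicate block in all 3 tests. The combination of authors' values and block was added after seeing the data. The count of probes below 0 on all UV-B arrays was 5, and 5 to 6 over 21 alternatives, with 6 under median centring, print-tip loess, without the arrays numbered 3 and without UV-B replicate 3, and 5 with the replicate block. Without single arrays it was 5 to 6. Leaving out saturated spots left probe 1 without a blue value, so that it dropped out of that fit, and gave UV-B means of -4.05, -3.30, -3.83 and -4.86 for probes 2 to 5. It also lowered the UV-A means of probes 2 to 5 to 0.23, 0.19, -0.02 and 0.43 and the blue mean of probe 5 to 0.32, and gave blue means of 0.97, 0.82 and 0.77 for probes 2 to 4. Every light spot of probes 2 to 5 on UV-A replicate 3 was saturated, so these UV-A means are the same as those without that array. Likewise the blue mean of probe 5 is that without blue replicate 3. UV-A minus blue of probes 2 to 5 moved from -0.33, -0.21, -0.07 and 0.09 to -0.74, -0.62, -0.80 and 0.11, none past the test. Over all alternatives the UV-B means of probes 1 to 5 stayed between -5.50 and -2.80. The stricter filter removed probes 6 to 9. Among the superfamily probes the calls that changed were those given above, and the block combined with the authors' values called 3 of the 6 as higher in blue light and 3 in UV-A, against 5.71% and 8.5% of all probes. Apart from the fit without saturated spots, in which r with ARAC9 was 0.913, the r of the 5 most alike genes stayed between 0.914 and 0.997. The cause of the other shifts was not tested. Saturation limits the size of every change of probes 1 to 5, and a signal near background limits probes 6 to 9.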
